A study of Monodelphis domestica with 7 samples.

Results

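MT3-like (ENSMODG00000025753), a gene similar to metallothionein 3, and SOD3 (ENSMODG00000000474), extracellular superoxide dismutase, were followed through every library of an opossum spinal cord injury series. They were picked by gene identifier, 2 of the 21314 genes with a count row, and both were among the 13534 genes with enough counts to be tested. Both had been listed by the study as changed by injury in these same samples, MT3-like at P7+24h and SOD3 at P28+24h, so those 2 changes are described here and are not independent evidence.

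The animal was the gray short-tailed opossum, Monodelphis domestica, a marsupial born at a very immature stage. The spinal cord was completely transected in the mid-thoracic region at P7 or P28, and RNA was taken 24 h later from cord rostral to the cut. The P7+24h injured group was compared with uninjured P8 control cords, and the P28+24h injured group with an uninjured P29 control. By the study's methods, P7 litters were injured whole and their controls came from other litters. At P28 the controls were usually anaesthetised littermates of the injured pups. Injury and litter therefore cannot be told apart at P7. There were 2 libraries in each group except the P29 control, which had 1. The methods describe libraries made from pools of 2 individuals. They report more animals per group than these libraries would take, so a library here may hold more. Replicate 1 of each group was sequenced in run 1 and replicate 2 in run 2 from separately collected samples, so collection and run differed together, and the P29 control came from run 1. The labels name no genotype or drug that separates the groups.

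Metallothioneins are small, cysteine-rich proteins that bind zinc and copper and take up oxidants through their thiol groups. Metallothionein 3 is the form best known from the brain and spinal cord, where it is found in neurons and astrocytes. SOD3 is secreted and bound to the extracellular matrix, where it turns superoxide into hydrogen peroxide. The peroxide is then removed by peroxiredoxins and glutathione peroxidases, and iron that is not safely stored can turn it into more damaging radicals.

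Library totals ranged from 3332232 to 6256074 counts, and every run 2 library was deeper than every run 1 library. Levels are given as TMM-scaled CPM, counts relative to the library total after a correction for differences in RNA composition. A count of 3 corresponded to 0.448 to 1.06 CPM, and both genes were above it in every library. Intervals given for single libraries are exact 95% intervals that cover counting error only. Gene lengths were not used, so levels are compared between libraries and not between the genes. The tissue labels were checked against cell markers: GFAP of astrocytes had 1034 to 14714 counts and MBP of myelin 110 to 115984, while no neuron marker on the list had an identifier.

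MT3-like was low in the younger cord and many times higher in the older cord. Where a run held both an injured cord and a control of the same age, it was higher in the injured cord, by a smaller margin. At the older age only run 1 held both. P8 control cords had 50 counts in run 1 and 48 in run 2, or 12.4 and 7.90 CPM. The P7+24h injured cords had 95 and 100 counts, or 24.9 and 14.9 CPM. The P29 control had 442 counts, 126.8 CPM, and the P28+24h injured cords had 616 and 702 counts, 217.2 and 113.7 CPM. The younger injured libraries both lay above both P8 controls, as in 8.55% of tested genes, and all 3 older libraries lay far above all 4 younger ones. The share of genes with the latter was not counted, but 40.4% were higher in the P29 control than in both P8 controls. At the older age the groups overlapped, since the run 2 injured cord fell below the control. In order of their means, P8 control was lowest at 10.1 ± 3.16 CPM (SD, n = 2), followed by P7+24h injured at 19.9 ± 7.06 (n = 2), the single P29 control, and P28+24h injured at 165.5 ± 73.2 (n = 2). The last 2 in this order were not separated by their spread.

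SOD3 followed the same order at lower counts. The P8 controls had 19 and 15 counts, or 4.70 and 2.47 CPM, and the P7+24h injured cords 27 and 37 counts, or 7.08 and 5.53 CPM. The P29 control had 54 counts, 15.5 CPM. The P28+24h injured cords had 116 and 171 counts, 40.9 and 27.7 CPM. No group overlapped its neighbour in the order. At P7+24h both injured libraries exceeded both controls in 8.55% of tested genes, and at P28+24h both exceeded the control in 22.2%. Group means were 3.58 ± 1.58 CPM in P8 controls, 6.30 ± 1.10 in P7+24h injured cords and 34.3 ± 9.35 in P28+24h injured cords (SD, n = 2 each). The younger groups rested on so few counts that single-library intervals met: 4.70 CPM in the run 1 control had an interval that reached above the run 1 injured value of 7.08.

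**Figure D1:**
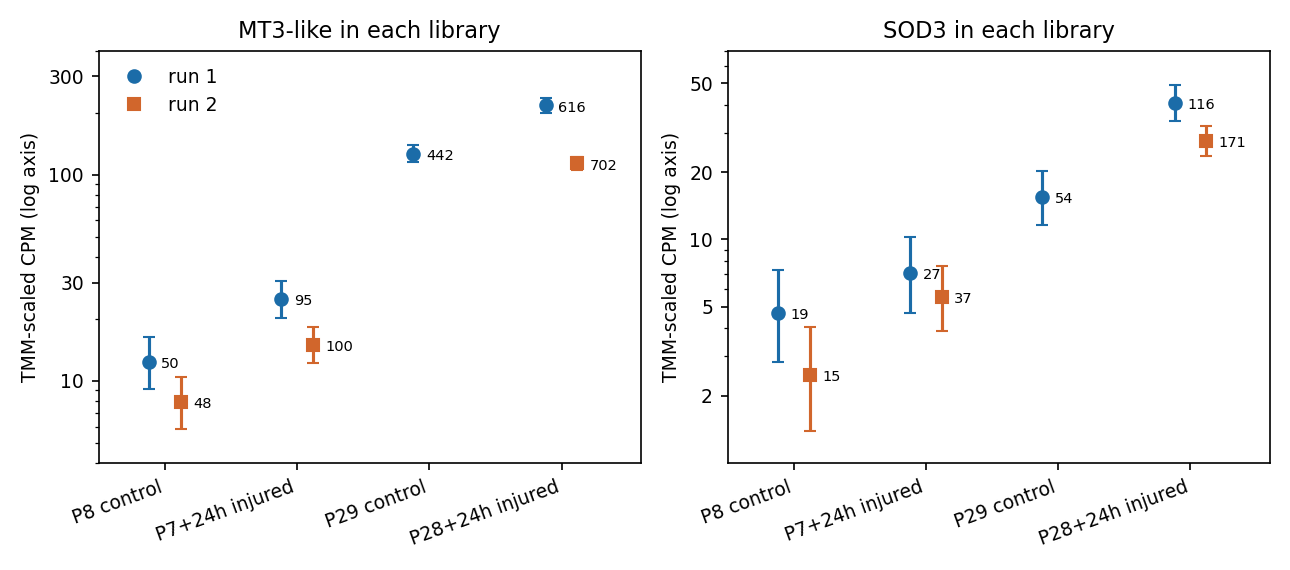
MT3-like and SOD3 levels in each of the 7 libraries (TMM-scaled CPM, log axis), with exact 95% counting intervals and the raw count beside each point. Circles are run 1 and squares run 2. Both genes were lower in run 2 than in run 1 wherever a group had 2 libraries. The 3 older libraries lay above all younger ones, a separation whose share over all genes was not counted.

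Within each group both genes were lower in run 2 than in run 1. For MT3-like the log2 difference, run 2 minus run 1, was -0.62 in P8 controls, -0.72 in P7+24h injured and -0.93 in P28+24h injured cords. For SOD3 it was -0.82, -0.34 and -0.56 in the same groups. The counting interval of the SOD3 ratio took in no change in P8 controls (0.249 to 1.09) and P7+24h injured cords (0.462 to 1.33). In P28+24h injured cords it did not (0.532 to 0.864). These run differences were close in size to the changes with injury, so the run matters for every test below. Each comparison was therefore fitted with edgeR's quasi-likelihood test without the run and, as an alternative, with the run as a block. A gene was called when its Benjamini-Hochberg adjusted p over all tested genes was under 0.05 and its fold at least 2.

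The first comparison asked how the younger cord responded to transection. Neither gene was called at P7+24h in either fit. Without the block no gene was called at all, while 69 of 13534 had an unadjusted p under 0.05, and with the block 2 genes were called (0.0148%). For MT3-like the injured library exceeded the control of its own run 2.02-fold in run 1 (counting interval 1.42 to 2.90) and 1.89-fold in run 2 (1.33 to 2.73). The fitted log2 fold change was 0.98 ± 0.47 (SE) without the block (edgeR adjusted p = 1) and 0.96 ± 0.20 with it (edgeR adjusted p = 0.424). With the run still a block, edgeR's likelihood ratio test, which called 0.266% of all genes, gave an adjusted p of 0.0282, but the fold of 1.95 was under the limit of 2.

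For SOD3 the injured library exceeded its control 1.51-fold in run 1, where the counting interval of 0.808 to 2.87 took in no change. In run 2 it was 2.24-fold higher (1.20 to 4.39). The fitted log2 fold change was 0.83 ± 0.46 without the block and 0.87 ± 0.31 with it (edgeR adjusted p = 1 in both). Both injured libraries lay above both controls for each of the 2 genes, as they did for 8.55% of all tested genes.

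The second comparison asked the same of the older cord. Without the block neither gene was called at P28+24h, nor was any other (157 genes had an unadjusted p under 0.05). With the block 102 genes were called (0.754%), neither gene among them. SOD3 had the larger difference of the pair: the injured library of run 1 was 2.64-fold above the control of that run (1.90 to 3.72), and that of run 2 was 1.79-fold above the same control (1.31 to 2.47). Its log2 fold change was 1.14 ± 0.54 without the block (edgeR adjusted p = 1) and 1.40 ± 0.31 with it (edgeR adjusted p = 0.0647). The likelihood ratio test with the block called SOD3 (edgeR adjusted p = 0.00155), as it did 3.64% of all genes. With the block and any 1 of the 6 libraries that could be left out, its log2 fold change was 1.34 to 1.46.

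MT3-like was 1.71-fold higher in the injured than the control cord of run 1 (1.51 to 1.94), a difference larger than counting error. The run 2 injured cord was 0.896-fold of the run 1 control (0.795 to 1.01), and no run 2 control was analysed here to set beside it. The log2 fold change was 0.38 ± 0.55 without the block (edgeR adjusted p = 1) and 0.71 ± 0.20 with it (edgeR adjusted p = 0.125). Without the run 1 injured library and without a block it turned to -0.16. The change within run 1 was larger than that of 89.1% of tested genes for MT3-like and of 97.0% for SOD3.

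Between P8 and P29 control cords MT3-like rose in both fits. The age comparison called 1.71% of all tested genes as higher without the block and 12.5% with it. MT3-like had a log2 fold change of 3.65 ± 0.55 without the block, a 12.6-fold rise (edgeR adjusted p = 0.0390), and 3.28 ± 0.22 with it, 9.68-fold (edgeR adjusted p = 2.66e-06). The call without the block was lost when any 1 of the 6 libraries outside the P29 control was left out, with edgeR adjusted p of 0.0549 to 0.262 and log2 fold changes of 3.36 to 4.001. Within run 1 alone the P29 control was 10.3-fold above the P8 control (7.65 to 14.0), a larger difference than in 98.6% of tested genes.

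SOD3 was called with age only where the run was a block or another test was used. Its log2 fold change was 2.13 ± 0.52 without the block (edgeR adjusted p = 0.110) and 1.88 ± 0.35 with it (edgeR adjusted p = 0.00279). Within run 1 the P29 control was 3.30-fold above the P8 control (1.92 to 5.89). Each gene was higher in the P29 control than in both P8 controls, as were 40.4% of tested genes. The P29 control is 1 library, so age cannot be told apart from the animals in that library.

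The injured cords differed between ages in the same direction. P28+24h injured cords were 8.72-fold above P7+24h injured cords for MT3-like in run 1 (7.02 to 10.9) and 7.61-fold in run 2 (6.17 to 9.48). For SOD3 these ratios were 5.78 (3.77 to 9.14) and 5.01 (3.50 to 7.36). These were the ratios in which both ages were present in both runs, and each gene gave values that met within counting error.

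Whether the response to injury differed between the ages was tested directly as the P28+24h log2 fold change minus that at P7+24h. For MT3-like it was -0.25 with the block (95% interval -0.87 to 0.37, edgeR adjusted p = 0.840) and -0.59 without it (-2.34 to 1.15). For SOD3 it was 0.53 with the block (-0.44 to 1.51, edgeR adjusted p = 0.772) and 0.31 without it (-1.40 to 2.02). Neither difference was called, nor was any gene without the block (59 had an unadjusted p under 0.05), and 0.0369% of genes were called with it. The intervals left room for a difference of about the size of the responses themselves. The 2 responses also differ in design, since controls came from other litters at P7 and usually from the same litters at P28.

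**Figure D2:**
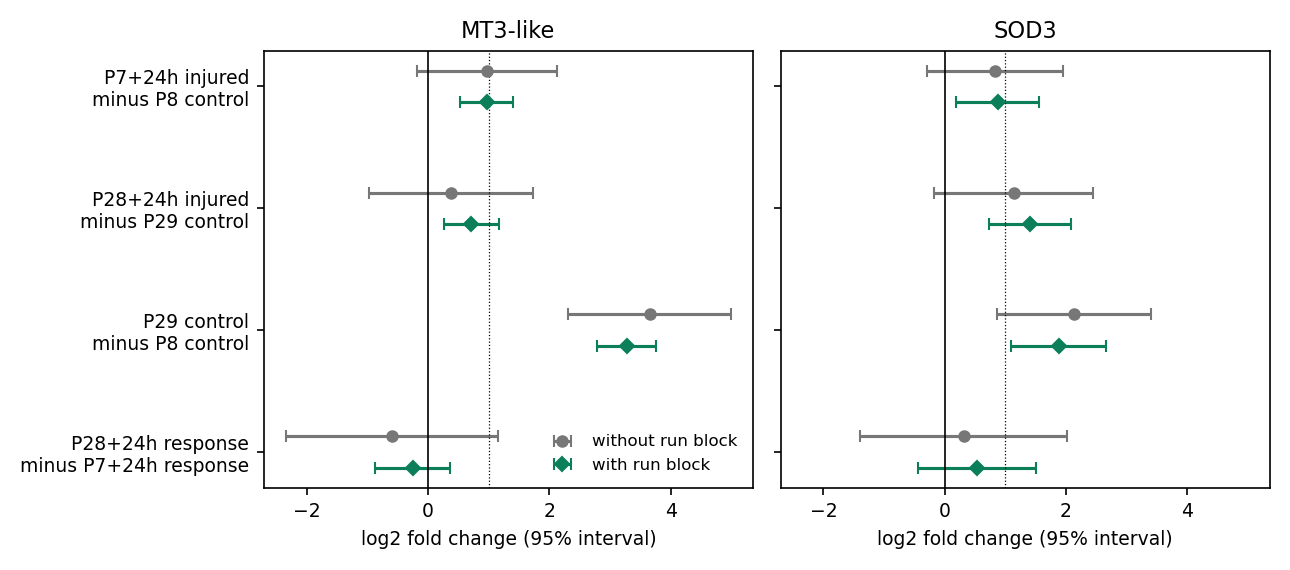
Log2 fold changes of MT3-like and SOD3 in the 3 comparisons and the difference between the responses, with 95% intervals, from the quasi-likelihood fit without the run (grey circles) and with the run as a block (green diamonds). The dotted line marks the fold of 2. The age difference of MT3-like lay farthest from 0, and both intervals of each response difference crossed 0.

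The balance between the 2 genes within a library is free of library scaling. MT3-like made up 72.5% and 76.2% of their summed counts in P8 control cords, and after injury at P7 its share was 77.9% and 73.0%. It made up 89.1% (exact interval 86.0 to 91.7) in the P29 control, and 84.2% (81.3 to 86.7) and 80.4% (77.6 to 83.0) in the P28+24h injured cords. The share was thus highest in the P29 control, and the run 2 injured interval lay wholly below that of this control. Since no second P29 control was analysed here, this difference was not tested over libraries.

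**Figure D3:**
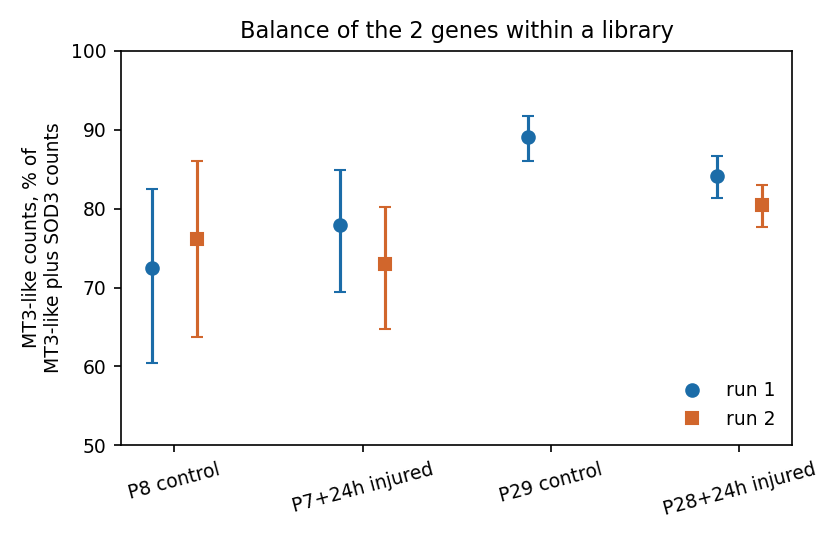
MT3-like counts as a percent of MT3-like plus SOD3 counts in each library, with exact 95% binomial intervals that cover counting error only. The axis runs from 50 to 100%. The P29 control had the highest share, 89.1%, and the 4 younger libraries lay between 72.5% and 77.9%.

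Other genes of metal and oxidant defence were taken from lists of 113 symbols, of which 11 could be tied to an identifier, so the lists can be described only by those members. SOD3 was the single superoxide dismutase and MT3-like the single metallothionein at hand. No copper or zinc transporter, NADPH oxidase or metal-responsive transcription factor had an identifier. All 12 genes with an identifier, counting MT3-like, were tested, and 5 of them, SOD3, GPX1, BLVRB, SLC11A1 and TFR2, had been listed by the study for changes at P28+24h in these samples. MT3-like came from its P7+24h list. PRDX1, PRDX2, PRDX6, GSTM3, PARK7 and PGD came from its list of proteins identified in gel bands that changed after injury. All 12 were therefore at hand through the study's own results.

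Among genes that remove peroxide, GPX1, a selenium-dependent glutathione peroxidase, had log2 fold changes of 0.22 ± 0.19 at P7+24h and 0.97 ± 0.25 at P28+24h with the block, where it was not called (edgeR adjusted p = 0.102). The peroxiredoxins PRDX1, PRDX2 and PRDX6, thiol enzymes that break down peroxides, had changes of 0.03 to 0.18 at P7+24h and -0.13 to 0.40 at P28+24h. PRDX2 had the highest mean level of this list, 514.8 CPM over the libraries. With age, PRDX1 rose by 1.10 ± 0.22 (edgeR adjusted p = 0.00426) and PRDX6 by 1.32 ± 0.21 (edgeR adjusted p = 0.000893) with the block, and neither was called without it. PRDX2 had -0.23 ± 0.25 in the same fit.

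Among iron and heme genes, BLVRB, the biliverdin reductase B that acts late in heme breakdown, rose at P28+24h with the block by 1.20 ± 0.23 (edgeR adjusted p = 0.0399). Without the block its log2 fold change was 0.64 ± 1.06 and it was not called. SLC11A1, an iron and manganese transporter of phagocytes, had 2.41 ± 0.51 (edgeR adjusted p = 0.0599). TFR2, a transferrin receptor of liver and red cell precursors, fell with age by 2.62 on the log2 scale (edgeR adjusted p = 0.0295) with the block. At P28+24h in the same fit TFR2 had 2.76 ± 0.84 and was not called (edgeR adjusted p = 0.144). The likelihood ratio test with the block, which called 3.64% of all genes at P28+24h, called all 3 there. Its edgeR adjusted p was 0.000477 for BLVRB, 0.000589 for SLC11A1 and 0.0144 for TFR2. The counts of TFR2 followed the run, with 180 in the run 1 P8 control and 8 in the run 2 one. Its age change rested on the single P29 control with 20. Erythroid markers, 5 of 6 symbols with an identifier and 1 HBA row at 0 in all libraries, summed to 339.4 and 67.9 CPM in those P8 controls and to 240.5 in the P29 control. After injury at P28 the sums were 551.9 in run 1 and 172.9 in run 2, and their part in the TFR2 and BLVRB values was not tested.

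Of the remaining genes, GSTM3, a glutathione transferase, had log2 fold changes of 0.13 and 0.25 after injury at P7 and P28 with the block. PARK7, a redox-sensitive chaperone, had -0.05 and 0.07. PGD, an enzyme of the pentose phosphate pathway that makes NADPH, had 0.19 and -0.21. In these 12 genes, the quasi-likelihood test with the block called 0 at P7+24h, 1 at P28+24h and 5 with age. Over all genes the shares called in either direction were 0.0148%, 0.754% and 21.4% in the same order. The 1 called at P28+24h was BLVRB, which the study had listed for that change, so its call is a description. Without the block, where age called 1.79% of all genes in either direction, MT3-like with age was the single call.

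**Figure D4:**
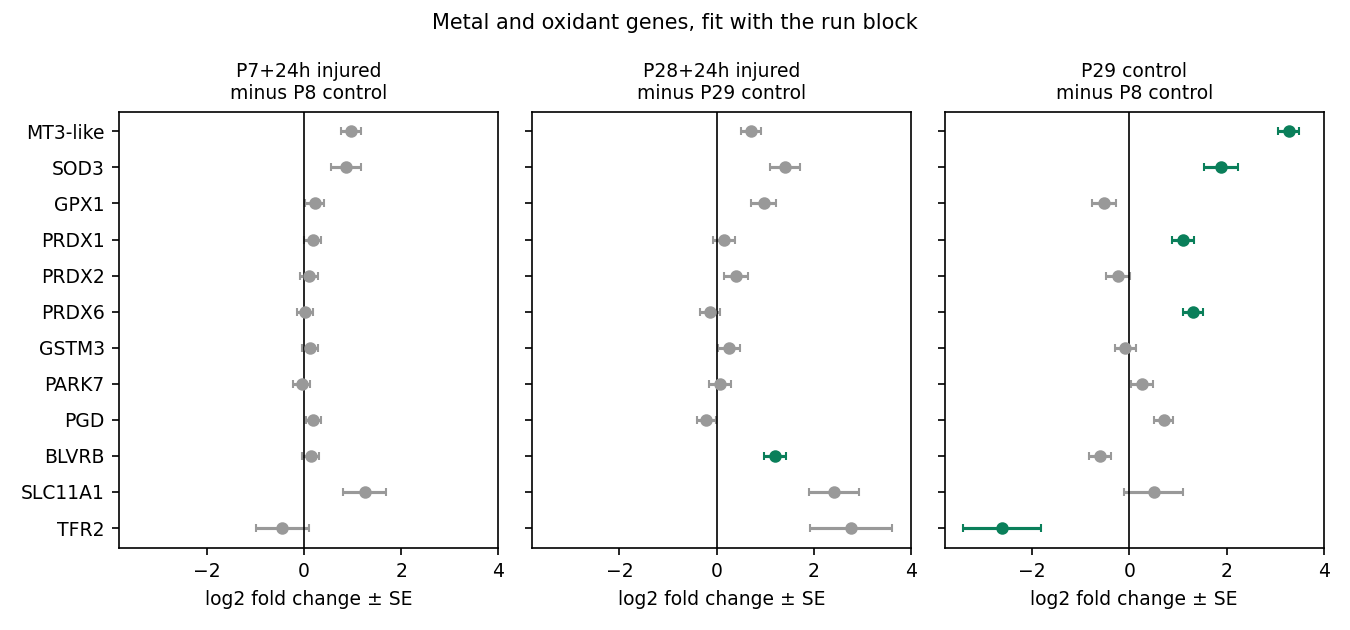
Log2 fold changes with SE of the 12 metal and oxidant genes in the fit with the run as a block, for injury at P7, injury at P28 and age. Green points were called. MT3-like and SOD3 lay above the peroxiredoxins in all 3 panels, and TFR2 was the single gene called as lower, with age. SLC11A1 lay above both after injury at P7 and P28, and TFR2 above both at P28. MT3-like also lay below GPX1 and BLVRB at P28.

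Myeloid markers were higher in the injured than the control cord wherever a run held both at an age, and in the older than the younger control cord, as both genes were. The 10 of 11 with an identifier, C1QA and TYROBP among them, summed to 38.1 and 43.3 CPM in P8 controls, 113.0 and 169.2 in P7+24h injured, 147.5 in the P29 control, and 511.4 and 390.1 in P28+24h injured cords, and none was at 0 in any library. Their sum was higher in run 2 than in run 1 at P8 and P7+24h and lower at P28+24h. Single markers differed in this. C1QA was higher in run 2 at P8 and P7+24h, while TYROBP was lower in run 2 in each group with 2 libraries. The median log2 fold changes of the 10 markers with the block were 1.80 at P7+24h, 1.71 at P28+24h and 1.92 with age. Skeletal muscle markers, 8 of 8 with an identifier, summed to 21.8 CPM in the P29 control and to 184.8 and 68.2 in the P28+24h injured cords, and to 10.4 to 24.9 in the younger libraries. The 2 of 8 meningeal and fibroblast markers with an identifier, MGP and OGN, summed to 7.17 and 3.62 CPM in P8 control cords, 9.70 and 5.82 in P7+24h injured, 10.3 in P29 control and 34.2 and 13.8 in P28+24h injured cords. The 2 of 7 smooth muscle and pericyte markers, DES and TAGLN, summed to 11.9 and 7.73 CPM, 16.0 and 9.41, 13.8, and 46.5 and 24.0 in the same order. Both sums were lower in run 2 than in run 1 in each group with 2 libraries, as were MT3-like, SOD3 and the skeletal muscle and erythroid sums. Of the single meningeal and smooth muscle markers, DES was higher in run 2 at P8, at 1.81 against 1.24 CPM. Among skeletal muscle markers, ACTA1 was higher in run 2 in each group with 2 libraries (P28+24h injured, 17.2 against 9.52 CPM). MYL1, MYLPF, MYH4 and NEB were higher in run 2 in at least 1 group. None of MGP, OGN, DES and TAGLN was at 0 in any library, but MGP had 1 to 3 counts in the younger libraries and DES 2 in the P29 control. MBP, a myelin gene of oligodendrocytes, had 110 to 911 counts in the younger libraries and 37694 to 115984 in the older ones. GFAP and ALDOC were the 2 of 10 astrocyte markers with an identifier. In each group with 2 libraries GFAP was higher in run 2 and ALDOC lower. In run 1, GFAP had 255.6 CPM in the P8 control, 405.5 in P7+24h injured, 1550 in P29 control and 1453 in P28+24h injured cords. ALDOC had 3318, 3317, 4829 and 4062 in the same order. The endothelial markers KDR and VWF, 2 of 6, summed to 163.9 CPM in the P29 control and 126.3 and 160 in P28+24h injured cords. The part of any of these in the changes of MT3-like and SOD3 was not tested. In pooled tissue, fewer cells of a type and less RNA per cell cannot be told apart.

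Genes with the most similar pattern were sought among 665 genes with a symbol, most of which the study had listed as changed. The measure was Pearson's r of log2 CPM over the 7 libraries, which share depth, run and age, so it is a description. For MT3-like the leading ones were CD74 (r = 0.977), TAPBP (0.975), TMEM176A (0.974) and, at rank 4, SOD3 (0.973). CD74 is the class II invariant chain, and TAPBP acts in class I peptide loading. For SOD3 they were TAPBP (0.993), PSMB10 (0.988), MYO1F (0.984), PLAC8 (0.980) and TMEM176A (0.980), with MT3-like at rank 7. PSMB10 is a subunit of the immunoproteasome and MYO1F a myosin of leukocytes. CD74 had 11.1 and 3.46 CPM in P8 controls, 9.18 and 7.47 in P7+24h injured, 77.8 in P29 control and 154.1 and 109.3 in P28+24h injured cords, so it followed MT3-like with age more than with the early injury.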

How the data were processed

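RNA was sequenced from 7 libraries of rostral spinal cord, described as made from pools of 2 individuals. After quality trimming, the authors aligned single-end reads to the Ensembl opossum genome using Bowtie2, and HTSeq in its union mode assigned them to nuclear genes. The deposited values are whole-number counts per gene, without normalization, and the use of strand is not given in the sources used here. A read shared by near-identical metallothionein copies could have been counted on either or dropped, so the level of MT3-like is uncertain in that respect. The processing notes name edgeR 2.6.12. The labels and the methods differ on RNA integrity, so it is not given.

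Genes passing filterByExpr (minimum count 10) were scaled by TMM and tested with edgeR 4.0.16 in R 4.3.3, by the quasi-likelihood test over the 4 groups (3 residual degrees of freedom), with Benjamini-Hochberg adjustment. The study's methods name edgeR's exact test, which was an alternative, as were DESeq2 1.42.0, the run block (2 residual degrees of freedom), a likelihood ratio test with the block, RLE and library-size scaling, other filters, thinned counts, the compared groups alone and leaving out each replicate. The replicate number is the run in the labels, which say its samples were collected separately. Differences between runs correlated across genes between groups at 0.699 to 0.802. Per-library log2 values used a prior count of 2. The fits were tested on simulated data.

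MT3-like and SOD3, and the gene lists, were chosen with earlier results of these data known. Named genes are the measured metallothioneins and superoxide dismutases, listed genes called with the block, the most abundant gene of each list and the 5 genes with the most similar pattern; SLC11A1, GPX1, PRDX1 and the markers were named to complete a list. Symbols came from tables that pair them with identifiers. No sequence is shown, and some results are not reported here.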

Additional observations from a re-analysis of the deposited data

How the results depend on the processing

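The directions of the fold changes of MT3-like and SOD3 held under all alternatives run, with 2 exceptions. Without P28+24h injured replicate 1 and without the block, MT3-like at P28+24h turned to -0.164, and without P8 control replicate 1 the response difference of SOD3 turned to -0.195. Of the alternatives for these fold changes, 154 left the call as it was, 17 added a call and 7 removed one. With the replicate number as a block, SOD3 gained its age call (log2 fold change 1.88), and the block changed no other call of the pair. The likelihood ratio test with the block called SOD3 at P28+24h (1.40) and with age (1.88), the exact test with age (2.14), and DESeq2 with the block with age (1.87). Leaving out 1 library, with or without the block, gave SOD3 0.831 to 1.46 at P28+24h, 1.72 to 2.64 with age and -0.195 to 0.748 for the response difference, and MT3-like -0.164 to 0.736 at P28+24h and 3.15 to 4.001 with age. At P7+24h these ranges were 0.568 to 1.33 for MT3-like, lowest without P7+24h injured replicate 1, and 0.414 to 1.34 for SOD3, lowest without P8 control replicate 2. Both were highest without P8 control replicate 1. The response difference of MT3-like ran from -1.13 to -0.124. With the block these fits had 1 residual degree of freedom, and the estimated prior raised the total to 3908 or more, against 10.9 with all libraries. Their calls, of SOD3 among others, are therefore no sign of stability. MT3-like lost its age call with library size scaling (3.35, edgeR adjusted p = 0.0507) and, without the block, on leaving out any 1 library (3.36 to 4.001). The cause of these changes was not tested.

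Counts of all genes called moved more. At P7+24h they were 0 without the block, 2 with it, 36 by the likelihood ratio test, 5 by the exact test, 2 by DESeq2 and 9 by DESeq2 with the block, and leave-one-out fits gave 8 to 50 with the block and 0 without it. At P28+24h the count was 0 without the block, 102 with it, 493 by the likelihood ratio test, 3 by the exact test and in the compared groups alone, and 105 by DESeq2 with the block, with leave-one-out counts of 312 to 964 with the block and 0 without it. With age it was 242 without the block, 2893 with it, 3242 by the likelihood ratio test, 972 by the exact test, 855 by DESeq2, 2255 by DESeq2 with the block, 138 with library size scaling and 961 in the compared groups, and leave-one-out counts ran from 2264 to 3453 with the block, and without it they were 0 when either P8 control was left out and under 242 in every such fit. For the response difference it was 0 without the block, 5 with it, 199 by the likelihood ratio test and 32 by DESeq2 with the block, with leave-one-out counts of 24 to 715 with the block and 0 without it. The single P29 control could not be left out, and the exact test and the compared groups alone give no response difference. SOD3 had as few as 15 counts in a younger library, which limits what could be detected there.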
